A study of Mus musculus with 2 samples.

Results

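Transcripts of matrix metalloproteinases (MMPs) and of their tissue inhibitors (TIMPs) were followed in single cells of MC38 tumors, which grow from a transplanted colon cancer line of the mouse. The 9 genes were the rows of both count matrices with the symbols Mmp8, Mmp9, Mmp12, Mmp13, Mmp14, Mmp19, Timp1, Timp2 and Timp3, out of 32285 genes, and all 9 were found. Each library was made with 3′ single-cell chemistry from CD45+ cells of 4 pooled tumors. Both libraries are of the WT genotype, and the study used mice aged 8 to 10 weeks. In Control the tumors were not irradiated. In IR the tumors received ionizing radiation in one dose of 20 Gy and were collected 4 days later. With 1 library per group there was no replicate check, so no test between the groups was possible, and every interval below covers counting error only.

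MMPs are zinc-dependent proteases that cleave proteins of the extracellular matrix and many secreted factors. Most are released as inactive proenzymes, while membrane-type members stay anchored at the cell surface. TIMPs bind the active site of MMPs and block it. In tumors, macrophages, neutrophils and fibroblasts are known sources of both.

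The libraries held 48593879 UMIs (unique molecular identifiers, each standing for 1 captured transcript) in Control and 42406461 in IR. Barcodes with at least 500 UMIs and 200 genes and at most 25% mitochondrial UMIs were kept, 5043 in Control with a median of 6777 UMIs and 3578 in IR with a median of 7884. Each was gated by marker genes that include no MMP or TIMP. The macrophage gate took 2488 Control and 608 IR barcodes, the monocyte gate 581 and 1134, the neutrophil gate 39 and 214, and the stromal (collagen-expressing) gate 173 and 133. Barcodes with markers of 2 lineages were set apart, 300 in Control and 321 in IR, and 6 barcode sequences occurred among the kept barcodes of both libraries. The labels name the cells CD45+CD11b+Ly6Chi, yet the T cell gate held 464 and 267 barcodes. The macrophage gate had C1qa at 2628 and 2025 CPM (UMIs of the gene per 1000000 UMIs of the gate), and the neutrophil gate had S100a9 at 30468 and 23131 CPM. In the stromal gate Col3a1 stood at 2271 and 1220 CPM. Of its other markers, Sparc stood at 1920 and 1585 CPM, Col1a1 at 96.1 and 26.7 and Lum at 12.7 and 0.284. Top2a, a gene of dividing cells, was at 242 and 238 CPM, against 94.8 and 32.1 in the macrophage gate. Which kind of collagen-expressing cell this gate holds was not tested, and stromal cells below are its barcodes. Ptprc, which encodes CD45, was at 18.4 and 7.66 CPM there, against 390 and 432 CPM in the macrophage gate. Stromal barcodes were far larger in IR, with a median of 24111 UMIs against 2048.

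Mmp8, Mmp12 and Mmp13 lie close together on chromosome 9 in the mouse genome build GRCm38, on the plus strand. Mmp13 spans bases 7272514 to 7283331, Mmp12 bases 7344381 to 7369499 and Mmp8 bases 7558456 to 7568485. The others are dispersed, with Mmp9 on chromosome 2, Mmp14 on chromosome 14, Mmp19 and Timp3 on chromosome 10, Timp1 on the X chromosome and Timp2 on chromosome 11. Upstream sequences are shown for Mmp12 and Mmp13, neighbours with the most similar pattern of all member pairs, and for Mmp8, farther along the chromosome. They are the 150 bases before each RefSeq gene start in GRCm38.p6, plus strand, 5′ to 3′, and capitals mark matches on either strand to the AP-1 letters TGANTCA or the ETS letters AGGAAG.
Mmp13, chr9:7272364-7272513: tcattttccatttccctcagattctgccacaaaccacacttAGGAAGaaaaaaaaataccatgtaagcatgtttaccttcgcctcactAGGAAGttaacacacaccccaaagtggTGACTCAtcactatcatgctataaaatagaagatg
Mmp12, upstream start, chr9:7344247-7344396: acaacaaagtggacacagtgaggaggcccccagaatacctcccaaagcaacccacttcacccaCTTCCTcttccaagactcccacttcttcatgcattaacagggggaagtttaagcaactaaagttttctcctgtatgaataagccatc
Mmp12, downstream start, chr9:7347224-7347373: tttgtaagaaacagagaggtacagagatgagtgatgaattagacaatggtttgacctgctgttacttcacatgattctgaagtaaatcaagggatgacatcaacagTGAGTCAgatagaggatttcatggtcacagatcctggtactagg
Mmp8, chr9:7558279-7558428: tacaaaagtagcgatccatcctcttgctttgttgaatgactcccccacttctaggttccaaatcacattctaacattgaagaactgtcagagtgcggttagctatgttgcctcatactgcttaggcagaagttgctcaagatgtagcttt
The AP-1 letters began 35 bases before the Mmp13 start and 44 bases before the downstream Mmp12 start, and Mmp13 also held 2 ETS matches. The upstream Mmp12 window held 1 ETS match, and the Mmp8 window held neither set of letters. Windows were matched for 7 of the 9 genes, in 8 windows, of which 2 held the AP-1 letters and 3 the ETS letters. Among all 32851 such windows, 4.24% held the AP-1 letters, 19.7% the ETS letters and 0.880% both. A match is a match of letters, and binding was not measured.

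**Figure D1:**
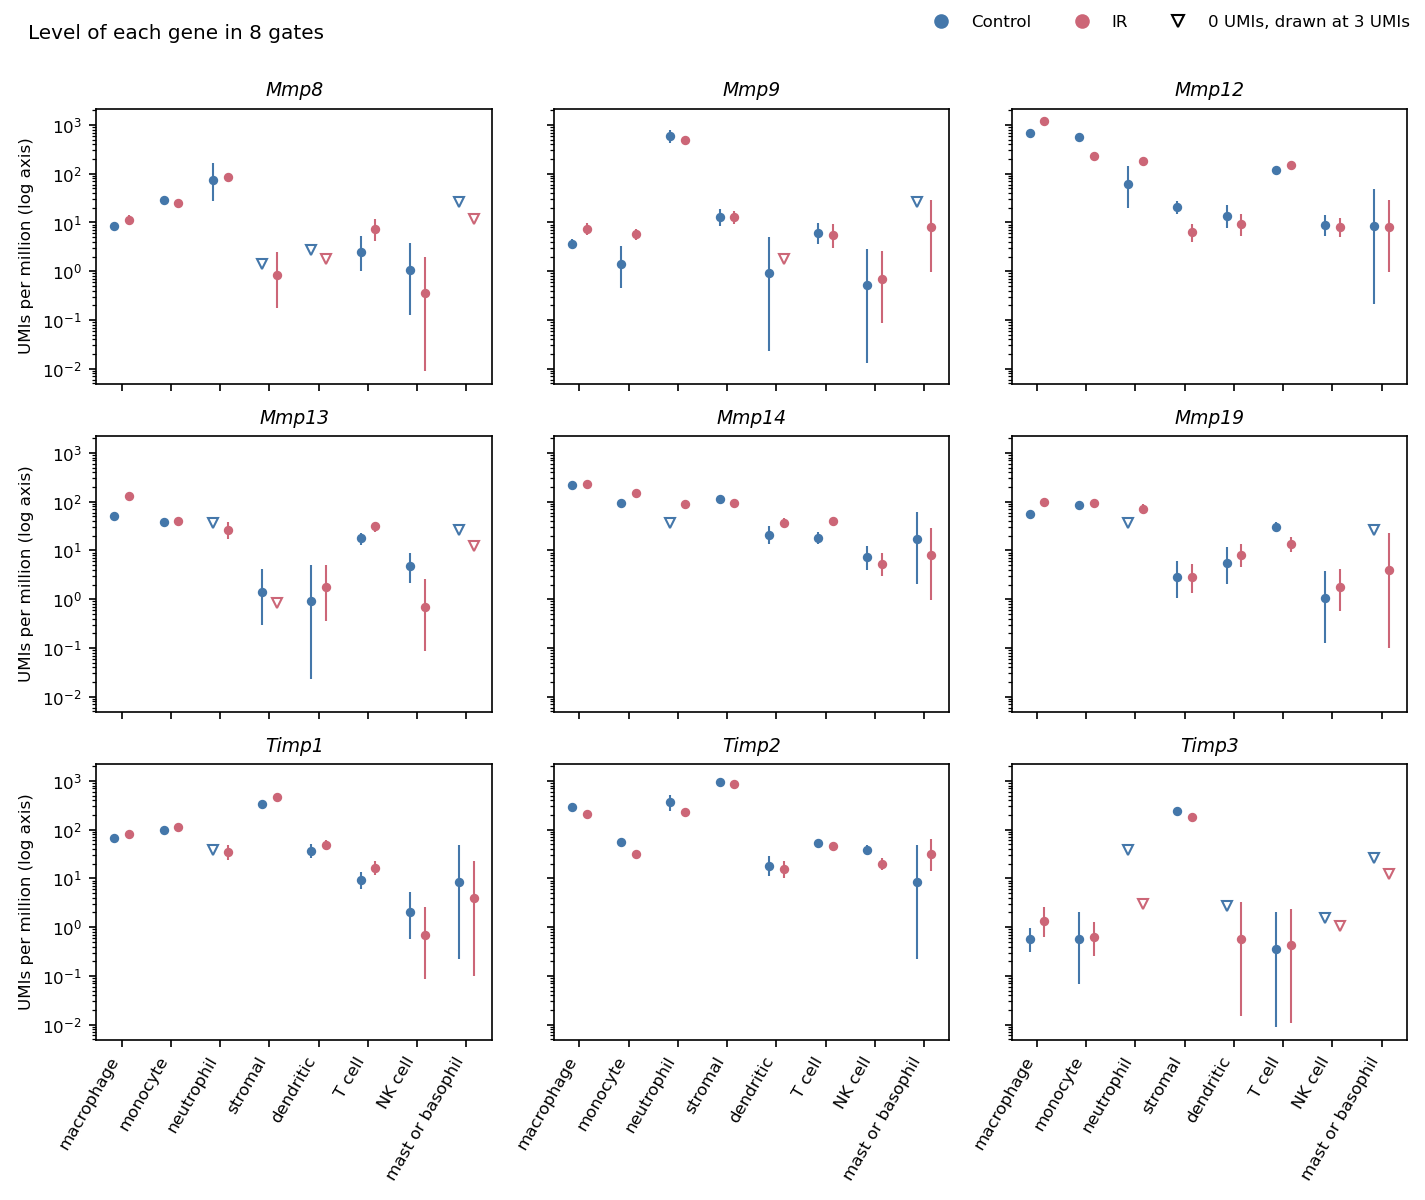
Level of each gene in CPM (log axis) in 8 gates of the Control and IR libraries, with exact Poisson 95% intervals. Of the gates drawn, Mmp12 was highest in the macrophage gate (687 CPM for Control and 1206 for IR), Mmp9 in the neutrophil gate (586 and 497), and Timp3 in the stromal gate (238 and 184), and open triangles mark gates without a UMI at the level of 3 UMIs.

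The genes divided by gate, among the gates named for a cell type. Mmp12, Mmp13 and Mmp19 had their highest levels in the macrophage and monocyte gates, Mmp8 and Mmp9 in the neutrophil gate, and the 3 inhibitors in the stromal gate. Mmp14 was highest in the macrophage gate. These are levels of summed UMIs, and 1 UMI stands for 1 transcript whatever its length.

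Mmp12, the macrophage elastase, stood at 687 CPM (95% Poisson interval 676 to 698) in the macrophages of Control and at 1206 CPM (1180 to 1233) in those of IR. The order of the gates was macrophage, monocyte, T cell, neutrophil in Control and macrophage, monocyte, neutrophil, T cell in IR. Neutrophil and T cell gates did not differ beyond their intervals in either library. The T cell gate carried 122 and 151 CPM, and the NK cell gate 8.87 and 8.11 CPM. T cell barcodes also carried C1qa, a complement gene of macrophages, at 61.2 and 30.2 CPM, and its part in their Mmp12 was not tested. Barcodes outside every gate had 851 and 766 CPM of Mmp12.

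Mmp13, a collagenase, also had its highest level in macrophages, with 51.0 CPM (48.1 to 54.0) for macrophages of Control and 133 CPM (124 to 142) for those of IR. In the monocyte gate it stood at 38.9 and 39.8 CPM. The stromal gate held 3 UMIs in Control and 0 in IR, where 3 UMIs would be 0.851 CPM. Mmp13 is best known from fibroblasts and cartilage cells. In these libraries 73.4% of its Control UMIs and 47.5% of its IR UMIs lay in the macrophage gate. Of the 886 IR UMIs in that gate, 1 cell held 291. Since the sort was for CD45, the source of Mmp13 in the whole tumor was not tested.

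Mmp19, a secreted MMP, was at 56.5 CPM (53.5 to 59.7) in macrophages of Control, with 97.4 CPM (90.1 to 105) in IR. In Control it was higher in the monocyte gate, at 86.4 CPM (77.0 to 96.7), and in IR the macrophage and monocyte gates did not differ beyond their intervals, at 97.4 and 94.1 CPM.

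Mmp14, the membrane-type MMP that activates pro-Mmp2 and pro-Mmp13, was found in macrophages, monocytes and stromal cells. Its macrophage level was 219 CPM (213 to 225) for Control and 233 CPM (221 to 245) for IR, and it stood at 95.4 and 148 CPM in monocytes and at 111 and 95.8 CPM in stromal cells. Dendritic cells had 21.1 and 36.8 CPM.

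Mmp9, the gelatinase stored in neutrophil granules, was at 586 CPM (430 to 779) in neutrophils of Control, with 497 CPM (455 to 543) in IR. The macrophage gate had 3.70 and 7.34 CPM, and the stromal gate 12.7 and 12.8 CPM. Mmp8, the neutrophil collagenase, was at 74.8 CPM (27.4 to 163) and 85.2 CPM (68.1 to 105) in neutrophils, on 6 and 86 UMIs. The monocyte gate followed with 28.4 and 25.2 CPM. In Control the Mmp8 intervals of these 2 gates overlapped, and in IR they did not. Although its level was highest there, the neutrophil gate held 1.70% of the Control and 14.9% of the IR Mmp8 UMIs. The macrophage gate held 53.7% and 13.0% of them, and the monocyte gate 28.7% and 48.6%.

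Timp2, which inhibits most MMPs and also takes part in the activation of pro-Mmp2 by Mmp14, was at 941 CPM (900 to 983) in stromal cells of Control, with 862 CPM (832 to 893) in IR. Neutrophils had 361 and 235 CPM and macrophages 292 and 211 CPM, and the intervals of these 2 gates overlapped within each library. Timp1, a soluble inhibitor induced in inflammation, was at 338 CPM (314 to 364) and 478 CPM (455 to 501) in stromal cells. Monocytes had 99.4 and 112 CPM and macrophages 66.7 and 82.3 CPM. Timp3, the inhibitor that stays bound to the matrix, was at 238 CPM (218 to 260) and 184 CPM (170 to 198) in stromal cells. Elsewhere Timp3 was near 0, with 0.572 and 1.35 CPM in macrophages and 0 UMIs in the neutrophils of both libraries.

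**Figure D2:**
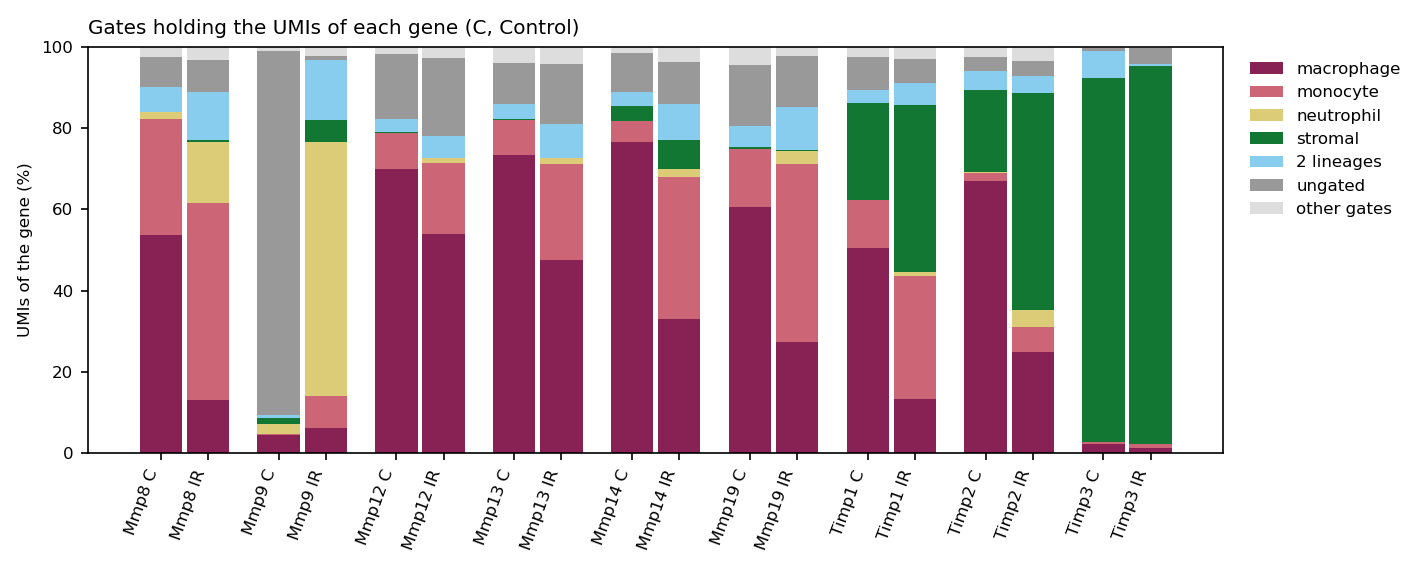
Share of each gene's UMIs over all kept barcodes (vertical axis, percent) that lay in each gate, for Control (C) and IR. The stromal gate held 89.7% and 93.1% of the Timp3 UMIs, and ungated barcodes held 89.6% of the Mmp9 UMIs in Control.

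The gates that supplied each transcript differed between the libraries, as did the gates' own shares of kept barcodes, which were 49.3% and 17.0% for macrophages and 11.5% and 31.7% for monocytes. For Mmp14 the macrophage gate held 76.5% of the UMIs in Control and 33.0% in IR, while the monocyte gate went from 5.21% to 35.0%. For Mmp19 the macrophage share was 60.5% and 27.3%, and the monocyte share 14.5% and 43.9%. The stromal gate held 20.2% of Timp2 UMIs in Control and 53.5% in IR, and 23.9% and 41.0% of Timp1 UMIs. Its 173 and 133 barcodes were 3.43% and 3.72% of the kept barcodes. They held 2121883 of the 41791369 kept UMIs in Control and 3526611 of 37964761 in IR. Since the sort was for CD45, their share of a library is not their share of the tumor.

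Over all kept barcodes, where fewer cells of a type and less RNA per cell cannot be told apart, Timp1 was at 71.8 and 108 CPM, a ratio of 1.51 (1.44 to 1.58). Timp2 was at 237 and 150 CPM, a ratio of 0.631 (0.611 to 0.652). Mmp12 was at 534 and 393 CPM, a ratio of 0.736 (0.720 to 0.751), although within the macrophage gate it was higher in IR. Mmp9 was at 45.0 and 21.2 CPM. Of the 1882 Control Mmp9 UMIs, 1687 lay in barcodes outside every gate, against 8 of 804 in IR.

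In the macrophage gate, 5 of the 6 MMPs stood higher in IR by 1.35- to 2.60-fold, and Timp2 stood lower. Mmp13 was 2.60-fold higher (2.38 to 2.84), Mmp12 1.76-fold (1.71 to 1.80) and Mmp19 1.72-fold (1.57 to 1.90). Mmp9 was 1.99-fold higher (1.37 to 2.86) on 84 and 49 UMIs, and Mmp8 1.35-fold (1.02 to 1.77). The Mmp9 value depended on the setting. Its log2 ratio was -1.12 with the marker cuts of all gates halved, 1.90 with the shorter marker list and 5.19 with free RNA subtracted. With monocytes pooled into the gate the Mmp12 log2 ratio was -0.16. Mmp14 differed by 1.06-fold (1.002 to 1.12). Of the inhibitors, Timp1 was 1.23-fold higher (1.12 to 1.36) and Timp2 was at 0.725 of its Control level (0.684 to 0.767). A gene was called when it differed at least 2-fold with at least 20 UMIs over both libraries. All 9 genes reached 20 UMIs and 2 were called, both higher, Mmp13 and Timp3, while 3.96% of the 11938 genes measured there were called higher, 4.67% lower and 8.64% either way. The median log2 ratio over the 9 genes was 0.79, against -0.04 over all genes. Timp3 had 13 and 9 UMIs, and the interval of its ratio ran from 0.889 to 5.96. If the markers of foreign lineages came from free RNA alone, an upper estimate, 32.5 Timp3 UMIs would be expected from it in Control and 6.73 in IR, and with free RNA subtracted Timp3 was not called.

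Markers of other cells moved with the macrophage values. The 6 monocyte markers summed to 917 CPM in the macrophage gate of Control and 1987 CPM in that of IR, with 5 of 6 higher in IR. The 7 neutrophil markers summed to 44.0 and 214 CPM, all 7 higher. The 8 macrophage markers summed to 11722 and 8920 CPM, with 7 of 8 lower. The part of these shifts in the MMP and TIMP values was not tested beyond the marker steps described below.

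**Figure D3:**
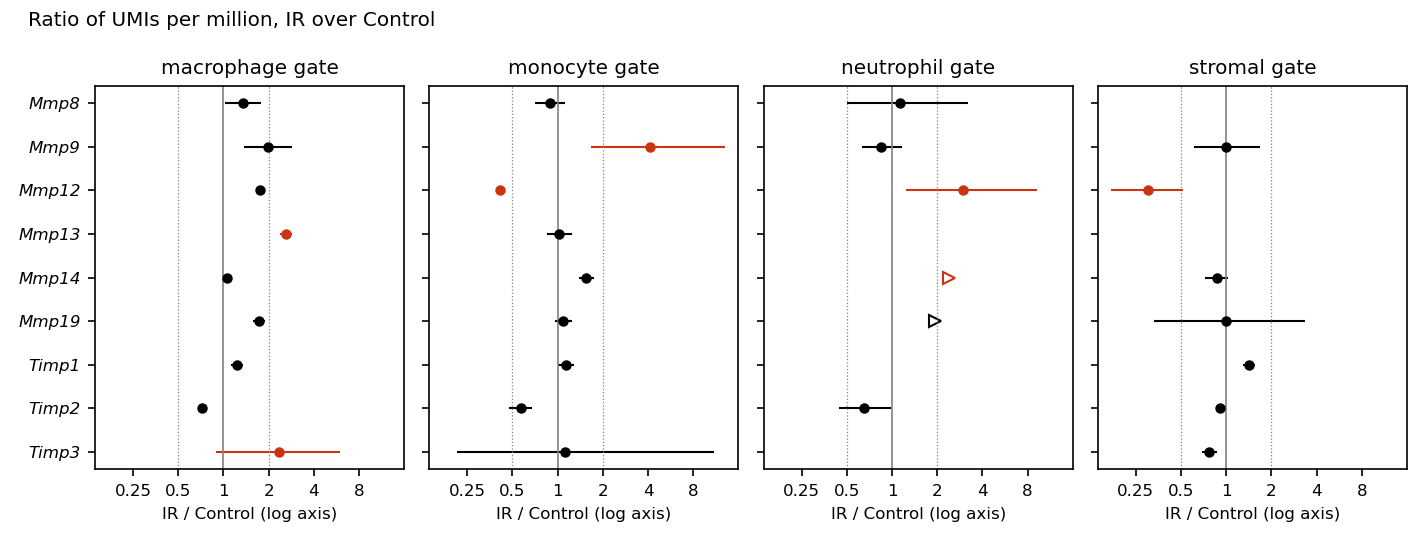
Ratio of CPM, IR over Control (log axis), for each gene in 4 gates with exact conditional 95% intervals. Red marks a difference of at least 2-fold with at least 20 UMIs, dotted lines mark 2-fold, and open arrowheads are lower bounds for genes with 0 UMIs in Control. Mmp12 stood at 1.76 in macrophages and 0.412 in monocytes.

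The Mmp13 call rested on 1 cell. A single IR macrophage held 291 of the 886 Mmp13 UMIs, 32.8% of them, and without the highest cell of each library the levels were 49.5 and 89.5 CPM, a ratio of 1.81 (1.63 to 1.999). Averaged over cells rather than summed, Mmp13 was at 68.7 and 123 CPM. Mmp12 was less dependent on 1 cell, with 1.66-fold (1.61 to 1.70) when the highest cell of each library was left out.

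Mmp12 and Mmp13 were carried by few cells. The 10% of macrophages with the most Mmp12 held 71.0% of its UMIs in Control and 82.7% in IR, and for Mmp13 96.7% and 94.8%. For Mmp14 the top 10% held 39.3% and 39.1%. After each cell was thinned to 2000 UMIs, which left out 309 and 91 macrophages, 32.2% (30.3 to 34.2) of the Control macrophages and 33.5% (29.4 to 37.7) of those in IR had Mmp12. The intervals of the Mmp12 shares overlapped while its summed level differed 1.76-fold. Mmp13 was found in 5.87% (4.92 to 6.95) and 7.16% (5.09 to 9.73).

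**Figure D4:**
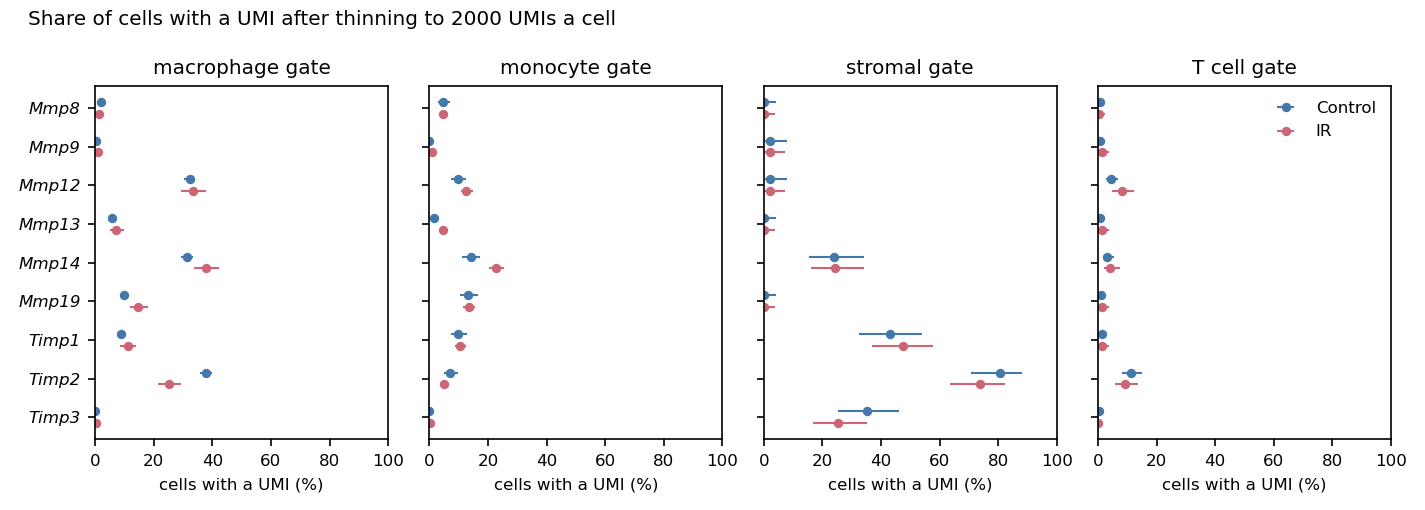
Share of cells with at least 1 UMI of each gene (horizontal axis, percent) after thinning every cell to 2000 UMIs, with exact binomial 95% intervals. Timp2 was found in 37.8% and 25.1% of macrophages and in 11.3% and 9.32% of T cells, and neutrophils are left out because 9 Control cells reached this depth.

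For Mmp19 and Mmp14 the macrophage shares depended on the depth to which cells were thinned. At 2000 UMIs the Mmp19 share was 9.91% (8.69 to 11.2) in Control and 14.7% (11.8 to 18.1) in IR, and the Mmp14 share 31.3% (29.3 to 33.3) and 37.9% (33.7 to 42.3). Neither pair of intervals overlapped at this depth. They overlapped at 1000 UMIs, with 4.85% and 6.26% for Mmp19 and 19.0% and 20.9% for Mmp14, and at 4000 UMIs, with 15.96% and 21.3% for Mmp19 and 51.8% and 52.5% for Mmp14. The Timp2 share was lower in IR at each of the 3 depths, without overlap of the intervals. At 2000 UMIs it was 37.8% (35.8 to 39.9) and 25.1% (21.5 to 29.1). In the T cell gate, whose cells should lack most of these transcripts, the shares were 3.08% and 4.24% for Mmp14, 1.03% and 1.27% for Mmp19, 4.37% and 8.05% for Mmp12 and 11.3% and 9.32% for Timp2, at median depths of 4298 and 5541 UMIs before thinning against 8197 and 8775 in macrophages. Without thinning, the macrophage shares were 45.7% and 50% for Mmp12, 11.5% and 17.4% for Mmp13, 63.6% and 68.3% for Mmp14, 25.7% and 37.8% for Mmp19 and 63.8% and 49.3% for Timp2. Mmp8, Mmp9 and Timp3 shares in macrophages were below 2% after thinning to 2000 UMIs in both libraries, and their intervals overlapped those of the T cell shares. At 4000 UMIs the Mmp8 shares were 2.84% and 3.96%, and the Mmp9 share was 0.843% in Control and 2.64% in IR.

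Mmp13 was found more often in macrophages with Mmp12 than in the rest. Among thinned Control macrophages, 13.5% of the 702 with Mmp12 also had Mmp13, against 2.23% of the rest, and in IR 12.7% of 173, against 4.36%. Mmp12 and Mmp14 showed no such overlap in Control, where Mmp14 was found in 31.8% of cells with Mmp12 and 31.0% of the rest. In IR the values were 43.9% and 34.9%.

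In the monocyte gate the order was different. Mmp12 was at 569 CPM (545 to 595) and 235 CPM (226 to 244), 2.43-fold lower in IR. Without the highest cell of each library the ratio was 0.482 (0.452 to 0.514), since 1 Control cell held 23.5% of the Mmp12 UMIs. Averaged over cells it was 286 and 219 CPM, and the thinned share of monocytes with Mmp12 was 9.62% (7.18 to 12.5) and 12.5% (10.6 to 14.7), so the share with Mmp12 was not lower in IR. The 10% of monocytes with the most Mmp12 held 98.2% and 91.2% of its UMIs.

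Mmp14 was 1.55-fold higher (1.38 to 1.75) in IR monocytes, and its thinned share was 14.03% (11.1 to 17.4) and 22.8% (20.3 to 25.5). This share difference depended on the depth of thinning. With thinning to 1000 UMIs instead, the Mmp14 shares were 11.5% (8.92 to 14.4) and 12.1% (10.3 to 14.2), with overlapping intervals. With thinning to 4000 UMIs they were 19.9% (16.1 to 24.0) and 35.8% (32.7 to 38.9), without overlap. Timp2 was at 56.3 and 32.0 CPM, a ratio of 0.568 (0.476 to 0.679). Mmp13 had nearly equal sums, but it was found in 1.40% (0.566 to 2.87) and 4.75% (3.55 to 6.22) of thinned monocytes. Here 1 Control monocyte held 70.3% of the 138 Control UMIs, and without the highest cells the levels were 11.6 and 37.1 CPM, a ratio of 3.19 (2.31 to 4.51). Mmp9 was 4.10-fold higher (1.67 to 13.0) on 5 and 64 UMIs, but averaged over cells it was at 7.57 CPM in Control and 5.48 CPM in IR. Of the 8 genes that reached 20 UMIs, Mmp9 was called higher, beside 3.58% of 10769 genes, and Mmp12 lower, beside 2.43% and 6.02% either way. The median log2 ratio over these 8 genes was 0.08, against -0.05 over all genes.

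Macrophage and monocyte barcodes were then ordered by the macrophage share of their macrophage and monocyte marker UMIs, in 5 equal steps. Mmp14 was higher in IR at every step, by 1.61-, 1.39-, 1.29-, 1.19- and 1.15-fold from the monocyte end to the macrophage end. It also climbed along the steps, from 76.8 to 227 CPM in Control and from 124 to 262 CPM in IR. Timp2 climbed from 42.8 to 324 CPM in Control and from 24.5 to 316 CPM in IR.

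For Timp2 the IR to Control ratio was 0.571, 0.517, 0.658, 0.895 and 0.976 along the steps. At the macrophage end its interval was 0.915 to 1.04, on 2087 Control and 337 IR cells. Over the whole macrophage gate the ratio was 0.725. The Mmp12 ratio was also lower at the monocyte end than at the macrophage end but crossed 1, with values of 0.322, 0.388, 1.09, 0.649 and 2.76. At the macrophage end it was at 705 CPM in Control and 1948 CPM in IR (ratio interval 2.68 to 2.85), and at the monocyte end at 519 and 167 CPM. The Mmp13 ratio was 3.12, 0.540, 4.36, 2.16 and 3.26 along the steps. At the macrophage end its interval was 2.95 to 3.61, and the ratio was 1.78 (1.57 to 2.02) without the highest cell of each library, the one with 291 UMIs in IR. At the step of 20 to 40%, 1 Control cell held 97 of the 111 Control Mmp13 UMIs. Without the highest cells the Mmp13 ratio at that step was 3.65 (2.12 to 6.83). The Mmp19 ratio was 1.62, 0.588, 1.15, 1.39 and 1.79 along the steps. Without the highest cells the Mmp12 ratios along the steps were 0.432, 0.527, 0.943, 0.604 and 2.58. The interval at the macrophage end was 2.502 to 2.66. At the monocyte end 1 Control cell held 476 of the 1114 Control Mmp12 UMIs.

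**Figure D5:**
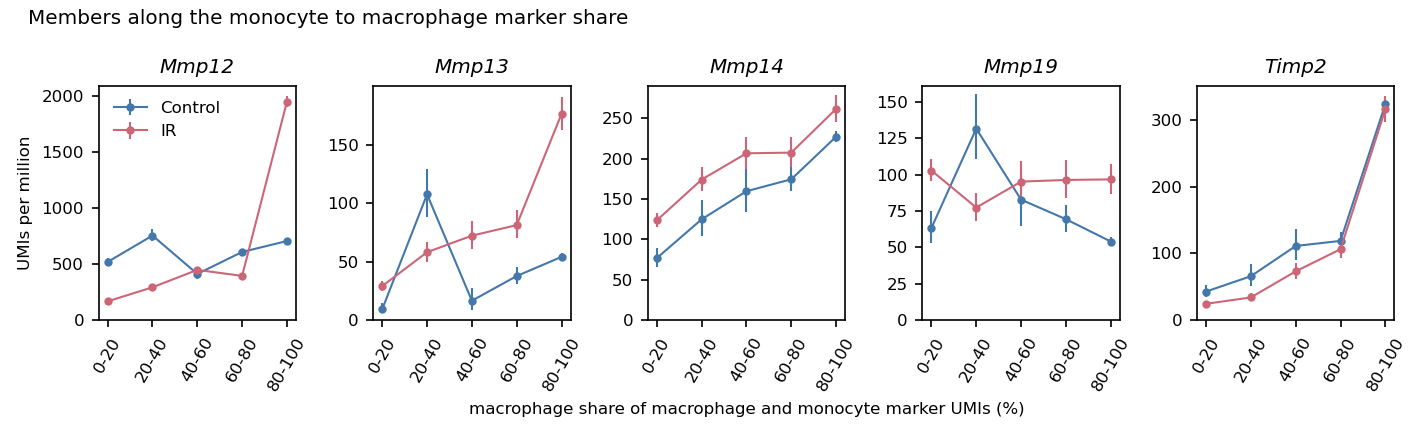
CPM of 5 genes (vertical axes) in 5 steps of the macrophage share of macrophage and monocyte marker UMIs (horizontal axis, percent), in Control and IR, with exact Poisson 95% intervals. Mmp14 was higher in IR at all 5 steps, Timp2 stood at 324 and 316 CPM at the last step, and Mmp12 changed side between the first and last step.

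Macrophage states separated the genes further. States were set on cells thinned to 2000 UMIs, and MHC class II was called high above the median of 38 UMIs of 4 MHC class II genes, which makes it a range and not a type. In macrophages with low MHC class II (996 Control and 364 IR cells), Mmp12 was at 924 and 1480 CPM and Mmp13 at 83.9 and 173 CPM, a ratio of 2.07 (1.87 to 2.28). Without the highest cell of each library, the one with 291 UMIs in IR, the Mmp13 ratio there was 1.38 (1.23 to 1.55), and that of Mmp12 was 1.52 (1.47 to 1.58). In those with high MHC class II (1183 and 153 cells), Mmp12 was at 515 and 535 CPM, a ratio of 1.04 (0.973 to 1.11), and Mmp13 at 25.7 and 36.3 CPM. Mmp14 differed little, at 218 and 229 CPM with low MHC class II and 219 and 239 CPM with high. Resident-like macrophages, marked by Lyve1, Folr2 and Cd163, were 135 and 18 cells, and their Timp2 stood at 978 and 611 CPM, against 255 and 196 CPM in the other macrophages. Their Mmp14 was at 108 and 117 CPM, against 224 and 236 CPM.

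In the neutrophil gate the granule MMPs did not differ between the libraries beyond counting error. Mmp9 had a ratio of 0.849 (0.629 to 1.17) and Mmp8 of 1.14 (0.503 to 3.19). These intervals are wide because Control had 39 cells and 80248 UMIs in all. Timp2 had a ratio of 0.650 (0.441 to 0.991). Without thinning, Mmp9 was found in 51.3% (34.8 to 67.6) of Control and 64.5% (57.7 to 70.9) of IR neutrophils, and Timp2 in 41.0% and 43.5%.

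Of the 8 genes that reached 20 UMIs in neutrophils, 2 were called higher in IR, Mmp12 and Mmp14, where 13.5% of 4797 genes were called higher, 9.53% lower and 23% either way. Mmp12 had 5 Control UMIs and 186 IR UMIs, 2.96-fold (1.25 to 9.21). Mmp14 had 0 and 90 UMIs, at least 2.38-fold higher against a floor of 3 UMIs for the library, and Mmp19 had 0 and 73 UMIs, at least 1.93-fold. Mmp13 and Timp1 had 0 UMIs in Control and 26 and 35 in IR, a difference that was not detectable at the Control depth. The 10% of IR neutrophils with the most held 95.7% of Mmp12, 90% of Mmp14 and 100% of Mmp19 UMIs, against 41.2% for Mmp9. When barcodes of 5000 UMIs or more were left out, Mmp12 had a log2 ratio of -1.30 and none of the 9 genes was called. Markers of other myeloid cells were present in this gate. The 8 macrophage markers summed to 1558 CPM in Control and 1337 CPM in IR, with 5 of them higher in IR, among them C1qb at 237 and 331 CPM while C1qa was at 374 and 176 CPM. The 6 monocyte markers summed to 1545 and 2414 CPM, with 5 of them higher in IR, and the part of these cells in the values was not tested. From empty droplets, up to 126% of the Control and 31.6% of the IR Mmp12 UMIs of this gate would be expected.

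Among the 9 genes, the TIMPs outweighed the 6 MMPs in the stromal gate of both libraries, at 1518 and 1524 CPM against 149 and 119 CPM. Mmp2, which is not among the 9 genes, stood there at 530 and 439 CPM, on 1124 and 1549 UMIs. That is more than the 6 MMPs together, and the shares given next leave Mmp2 out. The 6 MMPs made up 8.94% (8.02 to 9.93) of the UMIs of the 9 genes in Control and 7.22% (6.56 to 7.92) in IR, against 74.1% and 85.1% in macrophages, 84.0% and 79.1% in monocytes and 66.7% and 78.0% in neutrophils. Timp1 was 1.41-fold higher (1.29 to 1.55) in IR, Timp3 was at 0.771 of Control (0.685 to 0.867), Timp2 at 0.916 (0.865 to 0.970) and Mmp14 at 0.862 (0.728 to 1.02). After thinning, Timp2 was found in 80.7% and 73.7% of stromal cells, Timp1 in 43.2% and 47.4% and Timp3 in 35.2% and 25.3%, with overlapping intervals for each. Without thinning these shares were 78.0% and 87.2%, 55.5% and 75.2%, and 48.0% and 65.4%.

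Because stromal barcodes differed so much in size, they were split at 5000 UMIs. In the 77 Control and 91 IR barcodes at or above it, Timp1 was 1.38-fold higher (1.26 to 1.51) and Timp3 at 0.789 of Control (0.699 to 0.891). In the 96 and 42 smaller barcodes, Timp1 was at 280 and 1018 CPM, on 29 and 50 UMIs. Of the 6 genes that reached 20 UMIs in the stromal gate, Mmp12 was called lower, at 20.7 and 6.24 CPM, where 2.66% of 10396 genes were called lower, 3.14% higher and 5.8% either way. Its 44 and 22 UMIs lay in few cells, and 1 IR cell held 72.7% of the IR UMIs. The 8 macrophage markers in this gate moved the same way, each lower in IR, with a sum of 187 CPM in Control and 28.9 CPM in IR. Up to 44.4% and 77.5% of these Mmp12 UMIs would be expected from free RNA. The median log2 ratio of these 6 genes was -0.17, against -0.03 over all genes.

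Of 44 related genes of proteolysis and matrix, all were matched. In macrophages 22 reached 20 UMIs, of which 2 were called higher and none lower, where 8.64% of all genes were called either way. These were Serpinb2, an inhibitor of plasminogen activators, 5.20-fold higher (3.39 to 8.04), and Spp1, which encodes the matrix protein osteopontin, 2.49-fold higher (2.46 to 2.53). In neutrophils 15 reached 20 UMIs, with Spp1 2.998-fold higher and Lcn2, a granule protein that binds Mmp9, at 0.430 of its Control level, where 23% of all genes were called either way. In stromal cells 26 reached 20 UMIs, none was called higher and 7 were called lower, where 2.66% of all genes were called lower. Mmp3, stromelysin, had 43 Control UMIs and 0 in IR, at least 23.8-fold lower. Eln stood at 0.267 of Control (0.101 to 0.646), on 18 and 8 UMIs. Reck, a membrane inhibitor of MMPs, stood at 0.317 (0.132 to 0.716), on 19 and 10 UMIs. Adamts5 was at 0.321 (0.163 to 0.608), on 30 and 16 UMIs. Lrp1, a receptor that clears MMP and TIMP complexes, was at 0.437 (0.383 to 0.499). How far these values rest on single cells was not tested. Col1a1, at 0.277, is itself a marker of the gate. The median log2 ratio over the related genes was 0.16 in macrophages, 0.13 in neutrophils and -0.47 in stromal cells.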

How the data were processed

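Per the labels and the study's methods, libraries were made with the 10x 3′ v3.1 kit and aligned to mm10, and the submitters' processing notes name Cell Ranger 6.0.1, while the matrix headers carry version 4. The authors deposited unfiltered UMI counts per gene and barcode. Here barcodes were filtered as in the study's methods (200 genes, 25% mitochondrial UMIs) with a minimum of 500 UMIs, and gated on marker UMIs per 10000, with cuts set on the marker distributions (20 for macrophages and monocytes, 30 for neutrophils, 10 for stromal cells). UMIs were summed per gate and library and given as CPM with exact Poisson 95% intervals, ratios with exact conditional intervals, and shares with Clopper-Pearson intervals (scipy 1.17.1). TMM factors came from edgeR 4.0.16 and doublet scores from Scrublet in scanpy 1.11.5, as alternatives. The call needed at least 2-fold and 20 UMIs. Zeros were set to a floor of 3 UMIs per library for bounds. Empty droplets were barcodes of 1 to 100 UMIs. Steps were tested on simulated data. The text names all 9 genes, of the related genes those called (the 6 largest ratios each way), and the 3 genes most like each member. The members and lists were chosen with earlier results of these data known.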

Additional observations from a re-analysis of the deposited data

Results flagged for a closer look

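Mmp12 was listed here because it stood on opposite sides of Control in different gates. Its log2 ratio, IR over Control, was 0.81 in the macrophage gate and 1.56 in the neutrophil gate, and -1.28 in the monocyte gate and -1.73 in the stromal gate. The difference between gates was not tested, since each group is 1 library. The neutrophil and stromal values rest on 5 Control UMIs and on 22 IR UMIs.

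Empty droplets, used above only to estimate free RNA, held more Mmp8 and Mmp13 in IR. Mmp8 was at 6.55 and 12.8 CPM, and Mmp13 at 22.4 and 33.6 CPM. Timp2 there was at 193 and 103 CPM. If the markers of foreign lineages in the gates came from free RNA alone, free RNA would make up to 18.6% and 17.5% of macrophage-gate UMIs in Control and IR, an upper estimate because doublets add to it. At that share it would give 96.1% and 28.7% of the macrophage Mmp9 UMIs in Control and IR, and 9.39% and 5.42% of the Mmp12 UMIs.

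Mmp9 outside the gates came from a small set of Control barcodes. After these values were seen, barcodes with at least 100 UMIs of Ctsk and Acp5 together, cathepsin K and tartrate-resistant acid phosphatase, were counted. Control had 12, with a median of 25719.5 UMIs, and 11 of them were ungated, while IR had 0. They held 1694 Mmp9 UMIs, 90.0% of the library's, at 5596 CPM, and 11 of the 12 had Mmp9, with up to 368 UMIs in 1 cell. All 12 also had Mmp14, at 519 CPM, and Timp2, at 387 CPM, and the set held 0 UMIs of Mmp8, Mmp13 and Timp3. Atp6v0d2 (a proton pump subunit, 1153 CPM), Nfatc1 (a transcription factor, 710 CPM) and Ocstamp (311 CPM) were found in all 12, and Ptprc was at 132 CPM. No marker list was set for such cells, so they are left unnamed. Without them, Mmp9 over all kept barcodes was at 4.53 and 21.2 CPM, a ratio of 4.67 (3.98 to 5.51), against 0.470 with them. The neutrophil gate held 502 of the 804 IR Mmp9 UMIs, and it had 39 barcodes in Control and 214 in IR. Within that gate the Mmp9 ratio was 0.849 (0.629 to 1.17). The part of cell numbers in the ratio of 4.67 was not tested.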

How the results depend on the processing

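With 1 library per group, no alternative can show whether a difference would recur in other mice, and cell numbers limit the neutrophil gate most. No paired analysis was possible because each arm had a single library. The share of all genes called was computed for each gate at the main setting only, and not for shares of cells. Counts at other settings below have no such share beside them, so they cannot be read against all genes. In the macrophage gate 2 genes were called. The count was 1 after Scrublet removal, 1 on log2 of CPM plus 10, 0 on mean CPM per cell, 5 at 1.5-fold and 1 with monocytes pooled, where Timp2 was called lower. It was 3, with Mmp9 added, when barcodes of 2 lineages were kept and with the cuts of all gates doubled or halved. With the cuts halved Mmp9 was called lower. Mmp9 and Mmp13 were called in place of Mmp13 and Timp3 with the shorter list and with free RNA subtracted. Without the cell with most UMIs of the gene, an alternative chosen after seeing the data, here and for the marker steps and states, it was 1 (Mmp9, 2.25-fold). In the neutrophil gate 2 genes were called, and the count was 1 after Scrublet removal, 0 with the shorter marker list, 0 with free RNA subtracted, 5 on log2 of CPM plus 10, 0 on mean CPM per cell, 4 at 1.5-fold, 1 without the highest cell and 0 without barcodes of 5000 UMIs or more, the last 2 chosen after seeing the data. It was 3, with Mmp19 added, when barcodes of 2 lineages were kept and under TMM scaling. In the stromal gate the count of 1 was 0 on log2 of CPM plus 10 and on mean CPM per cell. In the macrophage, neutrophil and stromal gates, among genes with a UMI in both libraries and in at least 20 cells, 0 shares differed 2-fold at 2000 UMIs, 2 did at 1000, 1 at 4000 and 3 without thinning. Timp3 in macrophages had a log2 ratio of -0.0159 with the shorter marker list, and Mmp12 in neutrophils one of -1.30 without the large barcodes. With all cuts halved the macrophage Mmp9 log2 ratio was -1.12, and with monocytes pooled that of Mmp12 was -0.16 and that of Mmp14 -0.17. In macrophages Timp2 stayed below 0 and Mmp13, Mmp19, Timp1 and Mmp8 above 0 in all 14 alternatives that change the value, as did Timp1 above and Timp2, Timp3 and Mmp12 below 0 in stromal cells. The cause of these shifts was not tested.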

Other observations

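Each gene was set beside the 3197 other genes that reached 100 CPM in at least 1 of 16 sums, 8 gates in 2 libraries, by the Pearson correlation of log2(CPM + 10). The 16 sums share libraries and differ in depth, so the values are descriptions. Mmp12 and Mmp13 were each other's nearest gene, with r = 0.949. Next to Mmp12 came Arg1 (0.945), the arginase of suppressive macrophages, and Msr1 (0.944), a scavenger receptor. Next to Mmp13 came Msr1 (0.926) and Ctsa (0.920). Mmp19 was nearest Pid1 (0.968), Spint1 (0.956) and Clec4a1 (0.935), and it correlated with Mmp13 at 0.912. Mmp14 had no close partner, with Rrbp1 and Myof both at 0.897 and Cfb at 0.889.

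Mmp8 was nearest Mefv (0.981), Trem1 (0.962) and Trem3 (0.961). Mmp9 was nearest Stfa2l1 (0.980) and Retnlg (0.978), both markers of the neutrophil gate, and Il1f9 (0.975), and the Mmp9 and Mmp8 patterns correlated at 0.803. Timp1 was nearest Ccnd1 (0.969), Nupr1 (0.960) and Cnih4 (0.953), Timp2 nearest Rhob (0.913), Ptgfrn (0.889) and Cxcl1 (0.866), and Timp3 nearest Steap2 (0.9997), Col6a1 (0.999), a stromal gate marker, and Pcdh19 (0.999). Mmp14 and Timp1 correlated at 0.818.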
